A study of Mus musculus with 12 samples.

Results

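The nuclear genes of oxidative phosphorylation were followed across 4 groups of mouse intraepithelial lymphocytes (IEL), the lymphocytes that sit between the epithelial cells of the gut. Members were chosen by symbol alone: names that begin with Nduf, Cox4 to Cox8, Uqcr or Atp5, and Sdha to Sdhd, with 1 name marked as a pseudogene left out. The rule found 90 of the 25899 symbols of the count table. They were 36 subunits of complex I, 4 of complex II, 8 of complex III, 19 of complex IV and 15 of complex V, with 7 assembly or related factors. The remaining name, Cox4nb, belongs to a gene now called Emc8, a subunit of a membrane complex of the endoplasmic reticulum that has no part in respiration. It stayed among the 90 because the rule takes it. Of the 90, 83 had enough reads to be tested; the other 7 were Ndufa4l2, Cox4i2, Cox6b2, Cox7a1, Cox7b2, Cox8b and Cox8c, all isoforms known mainly from other tissues or from low oxygen.

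Oxidative phosphorylation is the last stage of respiration in mitochondria. Complexes I and II pass electrons from NADH and succinate to ubiquinone, complex III hands them to cytochrome c, complex IV passes them to oxygen, and complexes I, III and IV pump protons that drive ATP synthesis by complex V. All subunits of complex II and most of the others are encoded in the nucleus, while a catalytic minority is encoded in mitochondrial DNA. T cells are known to raise mitochondrial gene expression when they are activated and divide, and resident lymphocytes of the gut are known for a poised, slowly dividing state.

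The study put conventional T cells from lymph nodes of donors wild type for Themis, a gene of T cell receptor signalling, into Rag2-/- mice; such hosts lack lymphocytes with rearranged receptors but keep innate lymphoid and myeloid cells. Recipients of CD4+ cells and recipients of CD8αβ+ cells were separate, and small intestine was taken 1 week after a single intravenous transfer. RNA came from sorted TCRβ+ IEL, with 3 libraries in each of 4 groups. CD4 IEL and CD8αα IEL from CD4 cells came from CD4 recipients (label "CD4 progeny"); CD8αβ IEL and CD8αα IEL from CD8αβ cells carry the label for CD8αβ progeny. All 12 libraries carry the genotype label WT, and the labels used here give neither age nor strain, and do not say whether replicates came from separate mice or pools. The p-values therefore measure the spread between these libraries, which may be partly technical.

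Libraries held 5620257 to 11070734 counts, so 3 counts corresponded to 0.271 to 0.534 CPM (counts per library total, scaled to a common size). The 13 rows for mitochondrially encoded genes held 0 reads in every library, so only nuclear subunits could be described. In all 6 CD8αα libraries 6 of 13 T cell markers, Cd2, Cd3e, Cd5, Cd6, Lat and Themis, lay below 10% of every CD4 and CD8αβ IEL library: Cd3e was at 3.21 to 22.2 CPM against 403 to 639 CPM. Cd3d (11.6 to 28.2 CPM against 217 to 750 CPM) and Cd247 (13.3 to 41.1 CPM against 341 to 427 CPM) were also low. Cd4 was at 2.56 to 9.35 CPM and Cd8b1 at 2.53 to 20.6 CPM in the CD8αα libraries. The remaining markers of that list were not low. Cd3g was at 1902 to 3780 CPM in the CD8αα libraries against 424 to 1002 CPM. Lck was at 1671 to 2007 CPM against 1938 to 2478 CPM, and Cd8a at 2433 to 3251 CPM. Summed markers of NK and innate lymphoid cells were at 2725 to 5482 CPM in these 6 libraries against 131 to 366 CPM in the other 6, and they are called below the libraries labelled CD8αα. Of these, 4 (CD8αα from CD4 replicates 1 and 2, CD8αα from CD8αβ replicates 1 and 3) held 373 to 645 CPM of Xist with at most 1.03 CPM of Y-linked transcripts, which were at 234 to 449 CPM in the other 8 libraries. These levels go in part against a label of T cell progeny, and whether the RNA came from progeny of the transferred cells was not tested. The level of genes with short transcripts also differed between libraries. In CD8αβ IEL replicate 1 several members with near-identical copies elsewhere in the genome stood far from the other 11 libraries, and results are given with and without this library.

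The promoters of these genes are known to carry sites for a few factors that act on many of them at once, and 4 stretches are shown because they hold such letters near the start of subunits of complexes II, IV and V that were lower in CD4 IEL than in CD8αβ IEL. They come from RefSeq (GRCm38.p6), run 5′ to 3′ towards the gene, and all lie on the minus strand. Capitals mark matches to GCGCA and GCGC with any base between them (nuclear respiratory factor 1, NRF1), CCGGAAG (GABPA and other ETS factors) or AAGATGGC (YY1), each searched on both strands.
Sdhd, 100 to 31 bases before the start, chr9:50603880-50603949: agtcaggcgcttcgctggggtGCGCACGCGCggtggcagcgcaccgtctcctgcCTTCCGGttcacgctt
Atp5j, 100 to 31 bases before the start, chr16:84835007-84835076: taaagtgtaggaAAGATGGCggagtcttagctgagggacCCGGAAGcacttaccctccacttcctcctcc
Atp5h, 150 to 21 bases before the start, chr11:115419940-115420069: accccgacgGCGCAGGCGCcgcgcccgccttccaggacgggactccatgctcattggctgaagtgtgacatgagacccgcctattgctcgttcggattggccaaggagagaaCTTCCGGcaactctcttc
Cox6a1, 170 to 1 bases before the start, chr5:115348959-115349128: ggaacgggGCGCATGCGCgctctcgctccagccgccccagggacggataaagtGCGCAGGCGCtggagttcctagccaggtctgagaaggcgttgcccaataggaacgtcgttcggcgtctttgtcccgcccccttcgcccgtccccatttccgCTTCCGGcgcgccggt

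Of the 90 members 74 had a promoter window of 300 bases (250 before to 50 after the start) in that table, 70 of them tested. The NRF1 letters were in 18 of the 70 (25.7%), against 5.19% of 27025 genes with a window; the ETS letters were in 17 (24.3%) against 9.93%, and the YY1 letters in 11 (15.7%) against 3.19%. These sets are unlike, because the 70 members passed the filter on reads and the 27025 genes were not filtered. The 3 motifs do not overlap one another in the stretches above. Among the 56 members with a window that were lower in CD4 IEL than in CD8αβ IEL the shares were 25.0%, 26.8% and 14.3%, and among the other 14 they were 28.6%, 14.3% and 21.4%. A match of letters is a description of the sequence, not a bound site.

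CD4 IEL and CD8αβ IEL, the groups that kept the coreceptor of the transferred cells, differed in the most members of the 4 comparisons of groups. In CD4 IEL 65 of the 83 tested members were lower than in CD8αβ IEL and 0 were higher (edgeR quasi-likelihood test, adjusted p under 0.05), where 16.0% of all 12622 genes tested were lower and 12.9% higher. Higher members numbered 0 also at an unadjusted p under 0.05 and by DESeq2. The median member had a log2 fold change of -1.38, against 0.01 over all genes. The libraries of both groups did not overlap, with CD4 IEL lower, for 70 members (21.5% of all genes), and with CD4 IEL higher for 0 (20.1% of all genes). Members took 0.640% to 0.654% of all reads in CD4 IEL but 0.939% to 1.31% in CD8αβ IEL. In bulk samples such as these, fewer cells of a type and less RNA per cell cannot be told apart. The cell cycle list moved the same way: 25 of its 30 genes were lower in CD4 IEL, and its median level, as a log2 deviation from each gene's mean over the libraries, was 1.35 to 1.60 in CD8αβ IEL, 0.22 to 0.54 in CD4 IEL and -1.22 to -0.48 in the libraries labelled CD8αα. Its part in the result was not tested.

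**Figure D1:**
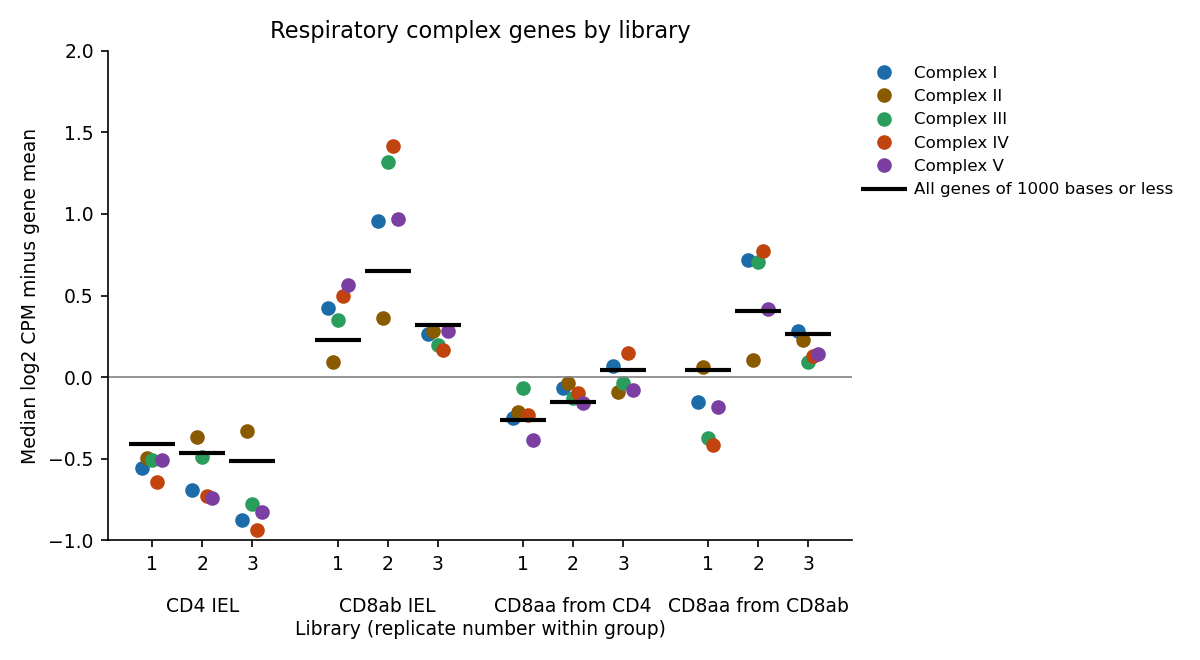
Median log2 CPM of the tested members of each complex, as the deviation from each gene's mean over the 12 libraries, in each library (points by complex; black bars, all genes with a transcript of at most 1000 bases). CD4 IEL libraries lie lowest and CD8αβ IEL replicate 2 highest for complexes I, III, IV and V and for short genes. In the remaining libraries bars and points do not always keep the same order.

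Complex I, the entry point for electrons from NADH, has a core that carries the flavin and the iron-sulphur clusters and a shell of accessory subunits. In CD4 IEL 28 of its 36 genes were lower than in CD8αβ IEL (median log2 fold change -1.40): 5 of 7 core genes (median -0.94) and 23 of 29 accessory genes (median -1.43). Ndufs1 (ENSMUSG00000025968, chr1:63143596-63176822, minus strand), the largest core subunit, measured 148, 147 and 119 CPM in CD4 IEL, against 141, 131 and 121 CPM in CD8αβ IEL. These ranges overlap, and the log2 fold change was 0.08 ± 0.16 (SE), with a 95% interval of -0.25 to 0.40. Ndufv1, which binds NADH and the flavin, gave -0.24 (interval -0.58 to 0.10), and it did not pass the test either. By contrast Ndufs8 (ENSMUSG00000059734, chr19:3908870-3912717, minus strand), an iron-sulphur subunit of the core, was at 43.0, 42.2 and 43.9 CPM in CD4 IEL and 122, 143 and 114 CPM in CD8αβ IEL. Every CD4 library lay below every CD8αβ library, and Ndufs8 was lower, at -1.56 ± 0.19 on the log2 scale (edgeR adjusted p = 1.22e-04). The core subunits Ndufv2 (-1.32), Ndufs7 (-1.24) and Ndufs3 (-0.94) were lower as well.

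Among accessory subunits of complex I the called changes ran from -0.51 for Ndufa10 to -2.16 for Ndufs5. Ndufa11 (ENSMUSG00000002379, chr17:56717762-56724248, plus strand), a subunit of the membrane arm, was at 23.9, 17.1 and 18.3 CPM in CD4 IEL and 74.2, 117 and 52.9 CPM in CD8αβ IEL, with no overlap and a log2 fold change of -2.04 ± 0.31 (edgeR adjusted p = 4.82e-04). Ndufs5 was at 8.40, 5.61 and 5.99 CPM and 37.3, 38.0 and 14.0 CPM, a change of -2.16 ± 0.40 (adjusted p = 0.00159). Every CD4 library again lay below every CD8αβ library, and these changes correspond to 4.11-fold and 4.45-fold lower levels. Ndufs5 has a copy elsewhere in the genome that is at least 99% identical, so its level is uncertain, as described below. The 6 accessory genes that did not pass the test were Ndufa1, Ndufa3, Ndufa5, Ndufa7, Ndufb2 and Ndufs4, with values from -1.04 (Ndufa5) to -0.75 (Ndufa3). Per kilobase of annotated exon, Ndufa2 (mean 90.4 CPM per kilobase over the 12 libraries) and Ndufa1 (86.0) had the highest levels in this complex. Per kilobase of the single transcript used for the length classes below, Ndufb8 was highest, at 134 CPM.

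Complex II, succinate dehydrogenase, is shared by respiration and the tricarboxylic acid cycle, and its 4 genes split. Sdha (ENSMUSG00000021577, chr13:74322254-74350280, minus strand), the flavoprotein that oxidises succinate, was at 575, 559.7 and 540.2 CPM in the CD4 IEL libraries, 548, 437 and 483 in those of CD8αβ IEL, 495, 532 and 471 in CD8αα from CD4 and 517, 494 and 526 in CD8αα from CD8αβ. All 12 libraries lay between 437 and 575 CPM. The CD4 IEL libraries lay above all 6 libraries labelled CD8αα but overlapped with CD8αβ IEL, and CD4 IEL against CD8αβ IEL gave 0.19 ± 0.11 (interval -0.03 to 0.41). Its partner Sdhb (ENSMUSG00000009863, chr4:140961203-140979193, plus strand), the iron-sulphur subunit, was at 105, 121 and 122 CPM in the CD4 IEL libraries, 235, 295 and 268 in those of CD8αβ IEL, 97.7, 113 and 123 in CD8αα from CD4 and 153, 163 and 136 in CD8αα from CD8αβ. The CD8αβ IEL libraries lay above all the others. Sdhb was lower in CD4 IEL than in CD8αβ IEL, at -1.20 ± 0.14 on the log2 scale (edgeR adjusted p = 9.95e-05). The membrane anchors Sdhc (-0.73 ± 0.18, adjusted p = 0.00791) and Sdhd (-0.75 ± 0.15, adjusted p = 0.00281) were also lower. Sdha (125 CPM per kilobase of exon) and Sdhd (85.7) had the highest levels per length in the complex.

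All 8 genes of complex III, which moves electrons from ubiquinol to cytochrome c, were lower in CD4 IEL (median -1.37). The large core proteins and the electron-carrying Rieske protein changed least: Uqcrc2 by -0.48 ± 0.16, Uqcrc1 by -0.54 ± 0.13 and Uqcrfs1, the Rieske iron-sulphur subunit, by -0.76 ± 0.16 (edgeR adjusted p = 0.0391, 0.00786 and 0.00422). Small subunits changed most. Uqcrh (ENSMUSG00000063882, chr4:116066965-116075071, minus strand), the hinge protein that binds the subunit carrying cytochrome c1, was at 63.2, 48.9 and 50.0 CPM in CD4 IEL and 164, 217 and 127 CPM in CD8αβ IEL. The libraries did not overlap, and the change was -1.65 ± 0.29 (adjusted p = 0.00121). Uqcr11, another small subunit, was lower, at -1.85 ± 0.41 (adjusted p = 0.00520). Per kilobase of exon Uqcrfs1 (92.8 CPM) and Uqcrc1 (88.8 CPM) were highest.

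The nuclear subunits of complex IV, cytochrome c oxidase, surround a core encoded in mitochondrial DNA. Of the 12 tested, 10 were lower in CD4 IEL than in CD8αβ IEL (median -1.59). Cox4i1 (ENSMUSG00000031818, chr8:120668290-120674209, plus strand), the common form of the largest nuclear subunit, was at 164, 163 and 151 CPM in CD4 IEL and 451, 564 and 397 CPM in CD8αβ IEL. Every CD4 library lay below every CD8αβ library, with a change of -1.56 ± 0.18 (edgeR adjusted p = 9.73e-05). Cox6a1 was lower, at -1.72 ± 0.35 (adjusted p = 0.00309), Cox6b1 at -1.65, Cox7a2 at -1.63 and Cox8a at -1.53. Ndufa4 (ENSMUSG00000029632, chr6:11900373-11907446, minus strand), named for complex I but known as a subunit of complex IV, was at 32.4, 29.6 and 24.4 CPM in CD4 IEL and 101, 164 and 77.1 CPM in CD8αβ IEL, a change of -1.99 ± 0.30 (adjusted p = 4.91e-04) with no overlap. Cox7c at -0.77 (interval -1.36 to -0.18) and Cox6a2 at -2.88 (interval -4.93 to -0.84) did not pass. Cox8a (237 CPM per kilobase of exon) and Cox4i1 (208) had the highest levels per length of the complex.

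Complex V, the ATP synthase, joins a catalytic F1 head to a membrane rotor and a stalk, and 13 of its 15 genes were lower in CD4 IEL (median -1.50). In the head 4 of 5 were lower (median -0.85). Atp5b, the catalytic β subunit and the gene of complex V with the highest level per length (211 CPM per kilobase of exon), was at 826, 900.0 and 976 CPM in CD4 IEL and 1180.3, 1228 and 1071 CPM in CD8αβ IEL. The shift of -0.36 ± 0.12 (edgeR adjusted p = 0.0358) was small. Atp5a1, its α partner (194 CPM per kilobase), gave -0.26 (interval -0.48 to -0.05) and did not pass. All 4 stalk genes were lower (median -1.56), among them Atp5o, which joins stalk and head (-1.61 ± 0.16, adjusted p = 3.84e-05), and Atp5f1 (-0.76 ± 0.12, adjusted p = 7.58e-04). The c ring, the rotor that protons turn, is encoded by Atp5g1, Atp5g2 and Atp5g3, which make the same mature protein, and all 3 were lower, at -2.08, -5.70 and -1.45. Of the membrane subunits Atp5l (-2.76) and Atp5j2 (-1.64) were lower. The values of Atp5g2 and Atp5l rest on CD8αβ IEL replicate 1, as described next.

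Atp5g2 (ENSMUSG00000062683, chr15:102663014-102667749, minus strand) was at 90.3, 2.64 and 1.48 CPM in CD8αβ IEL replicates 1, 2 and 3, and at no more than 2.64 CPM in any library but the first of these. Atp5l (ENSMUSG00000038717, chr9:44913250-44920742, minus strand), subunit g of the membrane part, was at 66.8, 17.3 and 7.24 CPM in the same replicates and at no more than 17.3 CPM in the other 11 libraries. Both have copies elsewhere in the genome that the reads could match about as well. Stretches of 72 coding bases and their copies are shown because a short read from them can match both places. Capitals mark mismatches, and positions count from the first coding base; Cox5b, a subunit of complex IV, is added because its copy held 0 reads in that library.
Atp5g2, coding bases 101 to 172: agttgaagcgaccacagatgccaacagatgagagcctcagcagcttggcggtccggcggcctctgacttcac
Gm10175, its copy: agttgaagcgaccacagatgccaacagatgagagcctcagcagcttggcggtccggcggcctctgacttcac
Atp5l, coding bases 101 to 172: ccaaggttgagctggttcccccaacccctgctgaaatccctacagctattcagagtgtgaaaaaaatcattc
Gm10221, its closest copy: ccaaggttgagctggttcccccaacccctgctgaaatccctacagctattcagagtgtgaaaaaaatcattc
Cox5b, coding bases 182 to 253: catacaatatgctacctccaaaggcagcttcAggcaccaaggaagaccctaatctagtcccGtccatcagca
Gm11273, its copy: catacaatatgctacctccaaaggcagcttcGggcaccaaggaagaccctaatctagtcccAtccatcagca

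Over their whole coding sequences Atp5g2 and Gm10175 differ at 0 positions, Atp5l and Gm10221 likewise at 0, and Cox5b and Gm11273 at 3 (C114T, A213G and G243A). Gm11273 (chr13:21501029-21501418) held 0 reads in CD8αβ IEL replicate 1 and 25 to 197 in the other 11 libraries, and Gm10175 (chr7:23946649-23947237) held 53 reads there and 3 to 26 elsewhere. Atp5l has 14 such copies, 3 of them in the count table: Gm10221 (chr5:24581458-24581879) held 94 reads in that library and 25 to 183 in the others, while Atp5l-ps1, at 98.4% identity, held 0 there and 0 to 34 in the others. Of the 83 tested members, 34 had at least 1 copy at 90% identity or more over 80% of the coding sequence. For the 9 whose closest copy was at least 99% identical (Atp5g1, Atp5g2, Atp5l, Cox5b, Cox7c, Ndufa12, Ndufab1, Ndufb4 and Ndufs5), the median log2 ratio of CD8αβ IEL replicate 1 to the mean of the other 2 replicates was 0.68, and 6 of the 9 lay above all 11 other libraries. The median ratio was -0.30 for the 25 members with copies of 90 to 99% identity, where 2 lay above all others, and -0.20 for the 49 with no such copy, where 5 did. The sources used here do not say how such reads were counted, and the part of counting in these values was not tested. The levels of these 9 genes are therefore uncertain.

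**Figure D2:**
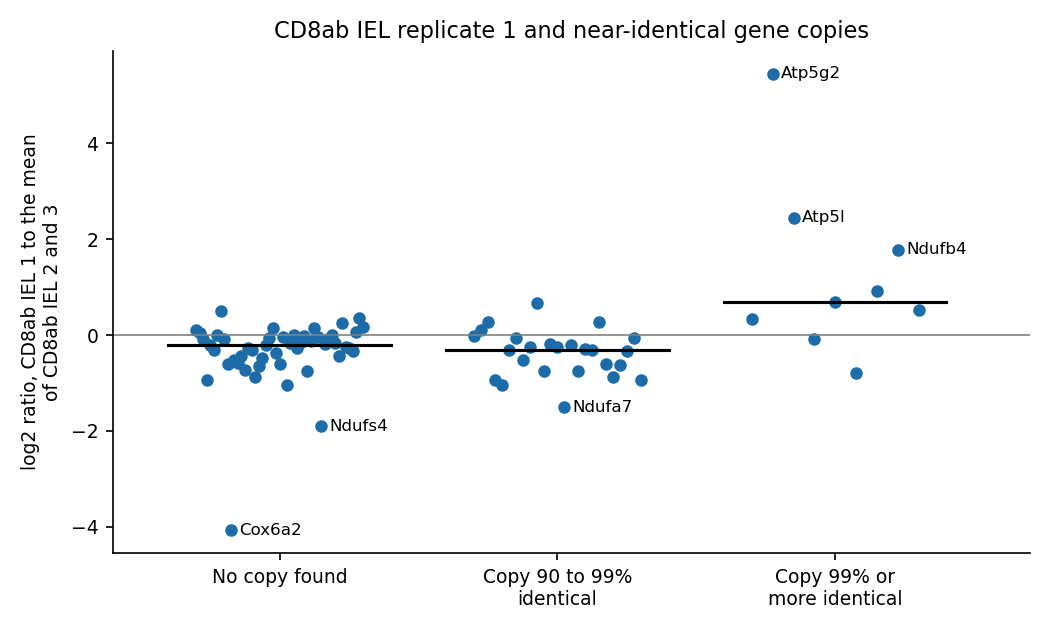
Log2 ratio of the level in CD8αβ IEL replicate 1 to the mean of replicates 2 and 3, per tested member, by the identity of its closest genomic copy. The highest ratios are those of Atp5g2 (5.45), Atp5l (2.44) and Ndufb4 (1.78), all with a copy that is at least 99% identical.

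Without CD8αβ IEL replicate 1 the counts by complex were close to those with it: 66 members were lower in CD4 IEL than in CD8αβ IEL and 0 higher (16.6% of all genes lower, 13.3% higher), 60 of them also called with it, and the median was -1.42. By complex 29 genes of complex I were lower (median -1.42), 3 of complex II (-0.83), 7 of complex III (-1.54), 11 of complex IV (-1.66), 12 of complex V (-1.52) and 3 assembly factors (-0.67). The remaining lower member was Cox4nb, the name match that has no part in respiration. Single genes did change. Atp5g2 went from -5.70 ± 1.32 (edgeR adjusted p = 0.00636) to -1.80 ± 0.83 (adjusted p = 0.117), and Ndufb4 from -2.01 ± 0.63 to -1.17 ± 0.60 (adjusted p = 0.158), so that neither was called any longer. Atp5l kept a change of -1.46 ± 0.46 (adjusted p = 0.0293). In the other direction Ndufs4, an accessory subunit of complex I, was at 23.8, 97.8 and 80.3 CPM in CD8αβ IEL and passed the test without replicate 1 (-1.38 ± 0.19, adjusted p = 3.67e-04).

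Assembly and related factors moved less than the subunits: 3 of 7 were lower in CD4 IEL than in CD8αβ IEL, where 16.0% of all genes were. Their median was -0.44. Ndufaf2 (-1.21 ± 0.41, edgeR adjusted p = 0.0398) and Ndufaf3 (-1.17 ± 0.25, adjusted p = 0.00409), which help to build complex I, were lower. So was Cox7a2l, which joins complexes III and IV into supercomplexes (-0.93 ± 0.18, adjusted p = 0.00261). Ndufaf1 gave -0.44, Ndufaf4 -0.42, Atp5sl -0.06 and Atp5s 0.28, none of them called. Cox4nb gave -0.46 (interval -0.86 to -0.06) and was not called with all libraries. Of 25 assembly factors outside the naming rule 4 were lower and 0 higher (median -0.30), where 16.0% of all genes were lower and 12.9% higher. The share lower was thus close to that of all genes. The 4 included the copper carriers Cox17 (-0.90) and Cox19 (-1.15).

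The change was larger for short than for long transcripts, in all genes and in members, though not in strict order of length class. Among all genes with a transcript of at most 700 bases, 166 of 480 were lower in CD4 IEL than in CD8αβ IEL (median log2 fold change -0.97); 23 of the 29 members of that length were lower (median -1.55). From 701 to 1000 bases 324 of 627 genes were lower (median -1.14) and 15 of 16 members (median -1.60). From 1001 to 1500 bases the counts were 516 of 1254 genes (median -0.62) and 15 of 16 members (median -1.19), and from 1501 to 2500 bases 519 of 2918 genes (median -0.16) and 9 of 14 members (median -0.50). Above 2500 bases 490 of 7202 genes were lower and 1357 higher (median 0.25), and 3 of 8 members were lower (median -0.60). Members thus had lower medians than all genes in each of the 5 length classes. The class of longest transcripts holds 8 members, fewer than 20, and these include Sdha and Ndufs1, which did not pass the test, and Atp5g1 and Ndufab1, which have near-identical copies.

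Library by library, the levels of short genes and of members moved together only in part. The median deviation of 1062 genes with transcripts of at most 1000 bases, members left out, was -0.41, -0.46 and -0.51 in CD4 IEL, 0.23, 0.65 and 0.32 in CD8αβ IEL, -0.26, -0.15 and 0.04 in CD8αα from CD4, and 0.05, 0.40 and 0.26 in CD8αα from CD8αβ. For the tested members it was -0.53, -0.69 and -0.80, then 0.40, 0.95 and 0.22, then -0.25, -0.08 and 0.04, then -0.15, 0.64 and 0.22, in the same order. Replicate 2 of CD8αβ IEL and replicate 2 of CD8αα from CD8αβ were highest of their groups on both measures. These 2 libraries also had the most summed epithelial marker RNA of their groups, 1064 CPM where the other CD8αβ IEL libraries had 335 and 423, and 1237 CPM where its companions had 629 and 779. All 24 epithelial markers were in the table. The sums were 110 to 259 CPM in CD4 IEL and 586 to 741 CPM in CD8αα from CD4. The largest parts of the latter were Cdh1 (232 to 296 CPM, 50.9 to 90.5 in CD4 IEL) and Epcam (95.5 to 106 CPM, 1.95 to 7.52). Between these groups Vil1 overlapped (8.88 to 16.6 against 3.15 to 12.2 CPM). Apoa1 (26.5 to 37.3 against 1.80 to 17.0 CPM) and Reg3b (48.5 to 75.1 against 1.65 to 23.8 CPM) did not overlap. Of the 24 markers, Olfm4 was at 0 in every group but CD8αβ IEL, and Lyz1 in CD4 IEL and CD8αα from CD4. Summed myeloid markers were 158 to 427 CPM in CD8αβ IEL and 51.5 to 126 CPM in the other groups. Of the 427 CPM, in replicate 2, Siglech alone gave 284 CPM, and it was at most 55.5 CPM in the other CD8αβ IEL libraries. Cd68 (50.7 to 59.1 against 14.8 to 22.1 CPM), Clec9a and Ms4a7 were higher than in CD4 IEL without overlap. The other myeloid markers overlapped between these groups, among them Csf1r (18.4 to 23.3 against 10.8 to 28.7 CPM), Lyz2, C1qa, C1qb and C1qc. The part of epithelial or myeloid cells in the members' levels was not tested.

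A fit with an offset for the trend of each library with transcript length, added after the data were seen, moved the median member from -1.38 to -0.61. It left 39 members lower in CD4 IEL than in CD8αβ IEL and 0 higher, where 11.9% of all genes were lower and 8.72% higher, and 37 of the 39 had been called without the offset. By complex 17 of 36 genes of complex I stayed lower (median -0.63), 2 of 4 of complex II (-0.33), 3 of 8 of complex III (-0.43), 5 of 12 of complex IV (-0.71), 10 of 15 of complex V (-0.65) and 1 of 7 assembly factors (-0.24). The remaining lower member was Cox4nb, which belongs to no complex. Ndufa4 was lower, at -1.09 ± 0.20 (adjusted p = 0.00272), Ndufs8 at -0.79 ± 0.15 (adjusted p = 0.00254), Sdhb at -0.53 ± 0.12 (adjusted p = 0.00648) and Cox4i1 at -0.71 ± 0.12 (adjusted p = 0.00127) in that fit. Sdha gave 0.12 ± 0.11 (adjusted p = 0.466). A trend with length can come from the samples or from how libraries were made, and these cannot be told apart here.

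**Figure D3:**
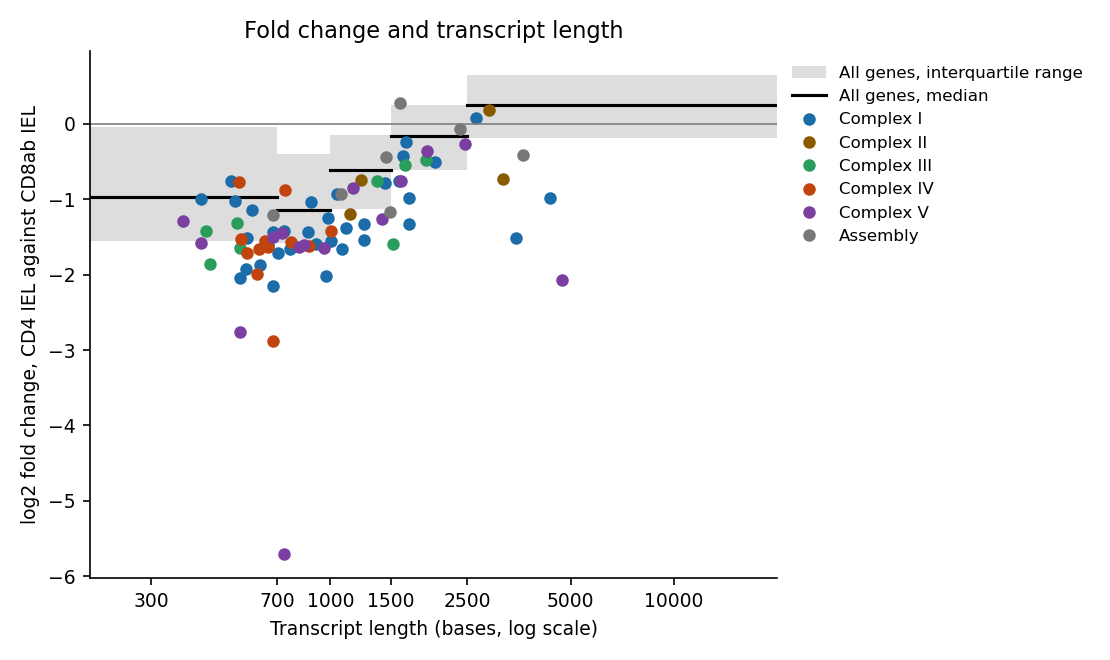
Log2 fold change of CD4 IEL against CD8αβ IEL by transcript length (log axis) for all genes tested and for the members. The black lines, medians of all genes by length class, run from -0.97 at up to 700 bases to 0.25 above 2500 bases, and the members' medians lie lower in each class.

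**Figure D4:**
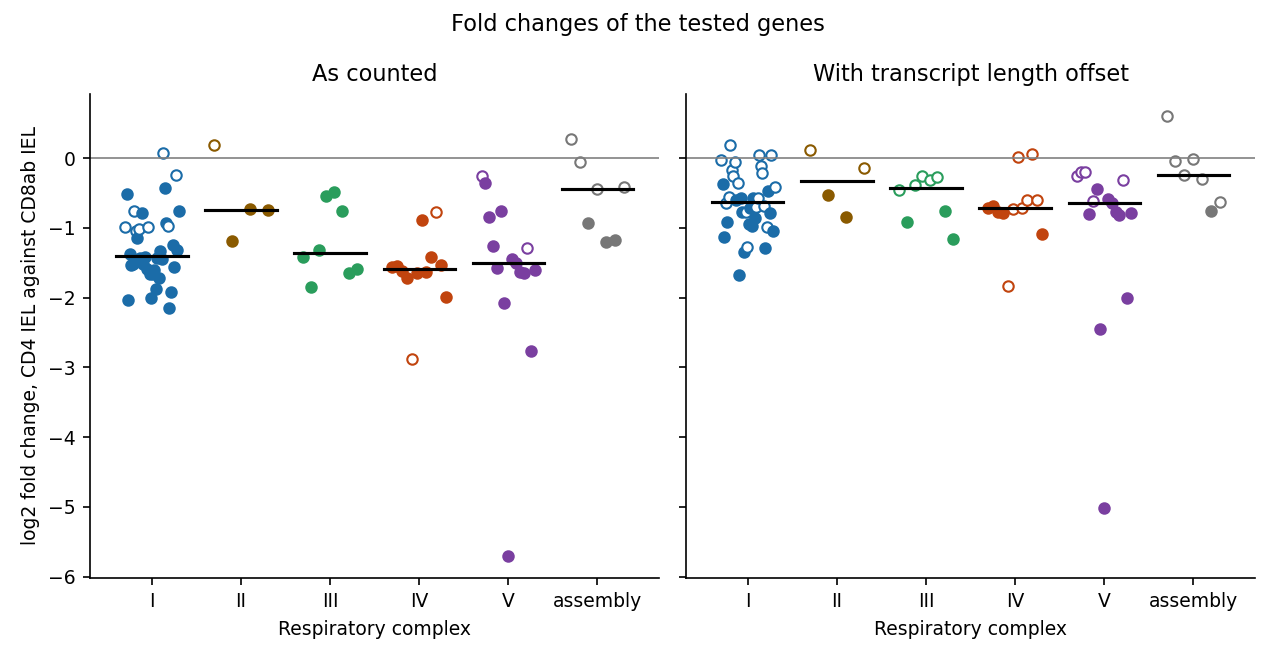
Log2 fold change of CD4 IEL against CD8αβ IEL for each tested member by complex, filled where edgeR's adjusted p was under 0.05, as counted (left) and with the transcript length offset (right). Medians move from -1.40 to -0.63 for complex I and from -1.59 to -0.71 for complex IV. Called members fall from 65 to 39 over all 83 tested, and the 39 include Cox4nb, which is not drawn.

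The libraries labelled CD8αα from CD4 were compared with CD4 IEL of the same recipients' group, which by the labels asks how the members differ in CD4 progeny that carry CD8αα; as given above, their markers go in part against that label. Here 19 members were higher and 0 lower (edgeR adjusted p under 0.05), where 15.0% of all genes were higher and 13.5% lower. The median member was at 0.60, against 0.02 over all genes, and 76 of 83 had a positive change. The libraries did not overlap for 55 members that were higher (24.3% of all genes) and 4 that were lower (21.4%). By complex 10 genes of complex I were higher (median 0.68), 1 of complex II (0.09, but -0.11 with the transcript length offset), 0 of complex III (0.35), 3 of complex IV (0.69), 2 of complex V (0.54) and 3 assembly factors (0.57). For complex III, where edgeR called 0 of 8, all 8 changes were positive. At an unadjusted p under 0.05 edgeR gave 32 members higher and 2 lower, and DESeq2 (adjusted) 24 higher and 2 lower. For these counts the shares of all genes are not given here.

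Ndufa13 (ENSMUSG00000036199, chr8:69894188-69902558, minus strand), an accessory subunit of complex I, was at 41.3, 35.5 and 38.9 CPM in CD4 IEL and 69.3, 75.6 and 79.7 CPM in CD8αα from CD4. The groups did not overlap, and the rise was 0.96 ± 0.33 on the log2 scale (edgeR adjusted p = 0.0438). Ndufa11 rose by 0.90 ± 0.31 (adjusted p = 0.0427), and the core genes Ndufs8 (0.76) and Ndufs7 (0.73) rose too. Sdhc, an anchor of complex II, was at 35.4, 36.5 and 46.4 CPM in CD4 IEL and 59.3, 66.7 and 77.1 CPM in CD8αα from CD4, again without overlap, and rose by 0.78 ± 0.18 (adjusted p = 0.00456). In complex IV Cox8a rose by 1.10 ± 0.36 (adjusted p = 0.0348), Cox5a by 0.68 ± 0.20 (adjusted p = 0.0215) and Cox4i1 by 0.63.

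Atp5f1 (ENSMUSG00000000563, chr3:105942698-105960099, minus strand), subunit b of the stalk of complex V, was at 187, 207 and 195 CPM in CD4 IEL and 299, 305 and 372 CPM in CD8αα from CD4. It rose by 0.73 ± 0.12 (edgeR adjusted p = 6.35e-04) with no overlap, and Atp5o rose by 0.52 ± 0.16 (adjusted p = 0.0214). The head did not follow: none of its 5 genes was called, and Atp5b gave -0.32 (interval -0.56 to -0.09). Atp5s, a factor that couples head and membrane part, rose by 0.88 ± 0.27 (adjusted p = 0.0248) and Ndufaf3 by 0.79 ± 0.25 (adjusted p = 0.0305). Sdha (-0.16, interval -0.38 to 0.06), Ndufs1 (-0.42, interval -0.74 to -0.10), Ndufv1 (0.11, interval -0.23 to 0.46) and Uqcrfs1 (0.08, interval -0.24 to 0.40) were not called.

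These counts depended on single libraries and on the fit. Leaving out CD4 IEL replicate 1, 2 or 3 left 8, 7 and 9 members higher, and leaving out CD8αα from CD4 replicate 2 or 3 left 9 and 7. The shares of all genes without these libraries are not given here. With the transcript length offset 8 were higher and 3 lower (7 of the 11 shared with the counts as deposited), where 13.9% and 14.3% of all genes were, and the median was 0.32. Ndufa4 was then lower, at -0.92 ± 0.21 (adjusted p = 0.00465) and Sdhb at -0.38 ± 0.12 (adjusted p = 0.0249). Both had not been called as counted (-0.56 and -0.06). Without CD8αβ IEL replicate 1, which enters only through the shared spread, 19 were higher (15.8% of all genes) and 0 lower (14.0%), 18 of them shared.

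In CD8αα from CD8αβ against CD8αβ IEL the balance went the other way: 10 members were lower and 1 higher (edgeR adjusted p under 0.05), where 15.1% of all genes were lower and 16.1% higher. The 10 and 1 of 83 members called were thus no larger shares than those of all genes. The median member was at -0.32, against 0.00 over all genes. The libraries did not overlap for 14 members that were lower (20.5% of all genes) and 3 that were higher (23.3%). Complex V gave 6 of the 10 lower genes (median of its 15 genes -0.54), and complexes I, II, III and IV gave 1 each (medians -0.19, 0.01, -0.38 and -0.61). Leaving out CD8αβ IEL replicate 2 put the median member at -0.070, and the medians of complexes I, III, IV and V were -0.0088, -0.11, -0.095 and -0.32, and without CD8αα from CD8αβ replicate 1 or 2 the median member was at -0.19 or -0.51. Of the assembly group 1 was higher (median 0.09).

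Of the genes called both with and without CD8αβ IEL replicate 1, Ndufa4 changed most. It was at 101, 164 and 77.1 CPM in CD8αβ IEL and 17.6, 33.5 and 32.8 CPM in CD8αα from CD8αβ. Every CD8αα library lay under every CD8αβ library, at a change of -2.03 ± 0.30 (edgeR adjusted p = 1.79e-04). Sdhb was lower, at -0.82 ± 0.14 (adjusted p = 5.09e-04) with no overlap, while its catalytic partner Sdha gave 0.07 (interval -0.15 to 0.29). Uqcrh, at 56.5, 133 and 84.1 CPM in CD8αα from CD8αβ, was lower, at -0.89 ± 0.28 (adjusted p = 0.0274). Ndufv2, an iron-sulphur subunit of the complex I core, was lower, at -0.60 ± 0.15 (adjusted p = 0.00687).

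In complex V the head genes Atp5b (-0.54 ± 0.12, edgeR adjusted p = 0.00372) and Atp5c1 (-0.37 ± 0.12, adjusted p = 0.0328) were lower, as were the c ring gene Atp5g3 (-0.79 ± 0.20, adjusted p = 0.00807) and the membrane subunit Atp5j2 (-0.93 ± 0.32, adjusted p = 0.0388). Atp5g2 (-5.21) and Atp5l (-2.13) were called with CD8αβ IEL replicate 1 and not without it (-1.30 and -0.83, adjusted p = 0.262 and 0.195), and Atp5c1 also was not called without it (adjusted p = 0.0547). Atp5s rose by 1.02 ± 0.27 (adjusted p = 0.0106), as it did in the CD4 recipients. It was at 7.41, 9.79 and 7.04 CPM in the CD4 IEL libraries, 6.65, 7.08 and 6.26 in those of CD8αβ IEL, 15.9, 14.7 and 14.0 in CD8αα from CD4 and 15.9, 10.9 and 13.7 in CD8αα from CD8αβ, so it was a low gene throughout. Without CD8αβ IEL replicate 1 there were 9 lower and 1 higher members (13.3% and 14.9% of all genes), 8 of these 10 shared, and a median of -0.38. With the transcript length offset 11 were lower and 1 higher (17.1% and 15.8% of all genes), including all 11 called as counted.

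**Figure D5:**
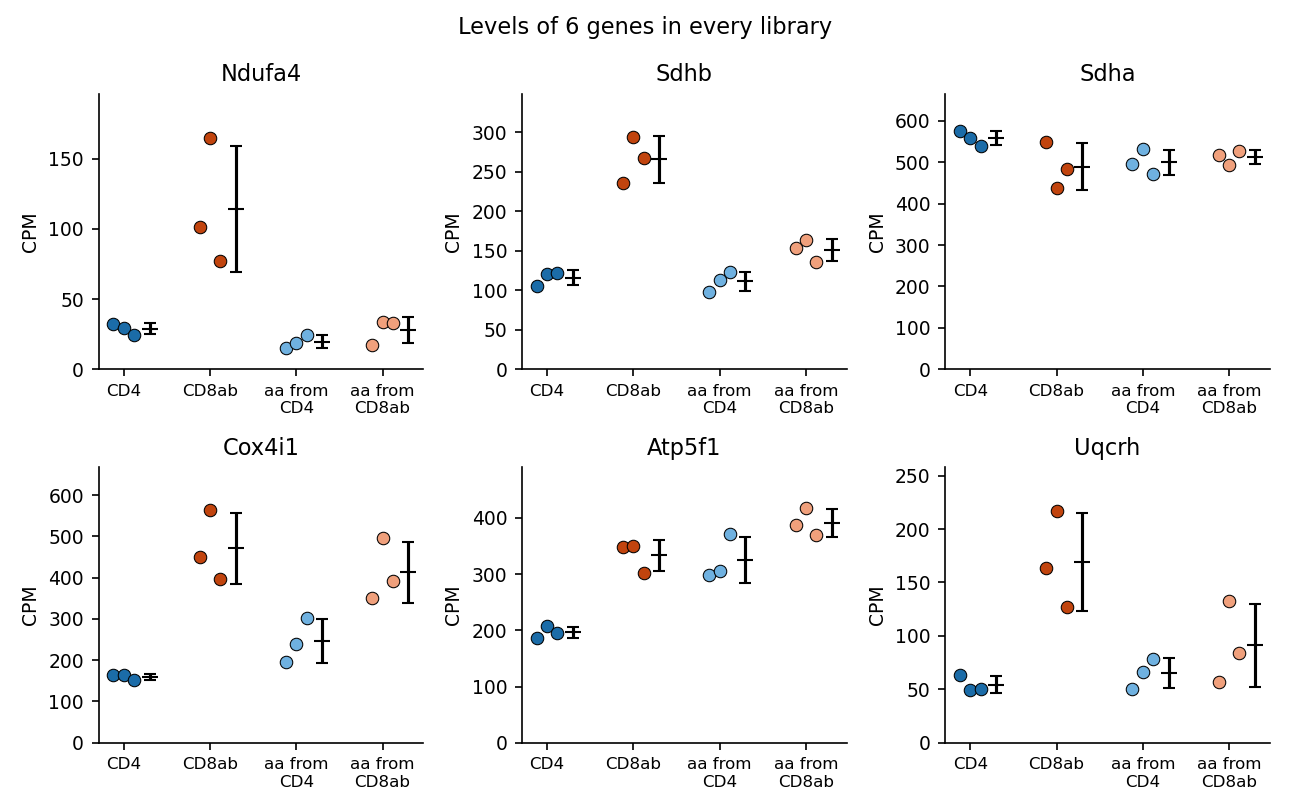
Level (CPM) of Ndufa4, Sdhb, Sdha, Cox4i1, Atp5f1 and Uqcrh in each library (points) with the mean and SD of each group of 3. Sdha stays between 437 and 575 CPM in all 12 libraries, while Ndufa4 is at 77.1 to 164 CPM in CD8αβ IEL and at most 33.5 CPM in the other 9.

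Leaving out single libraries moved this count too: 17 members were lower without CD8αβ IEL replicate 3, 20 without CD8αα from CD8αβ replicate 2, and 6 without replicate 1 or replicate 3 of that group. For these counts the shares of all genes are not given here. When only the CD8αα libraries with Y-linked transcripts were kept, 1 in each CD8αα group, the median member of this comparison was at -0.02. In that fit the lone library was assumed to vary like the other groups.

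Between the 2 groups of libraries labelled CD8αα few members differed. In CD8αα from CD4 7 members were lower than in CD8αα from CD8αβ and 0 higher (edgeR adjusted p under 0.05), where 2.46% of all genes were lower and 1.87% higher. Higher members numbered 0 also at an unadjusted p under 0.05 and by DESeq2. The median member was at -0.35, against -0.03 over all genes, and at -0.56 or -0.11 without CD8αα from CD8αβ replicate 1 or 2. The 7 were the complex I genes Ndufb10 (-0.83 ± 0.20, adjusted p = 0.0336), Ndufs8 (-0.82 ± 0.18, adjusted p = 0.0253) and Ndufs7 (-0.71), Cox4i1 of complex IV (-0.75 ± 0.18, adjusted p = 0.0345), and Atp5g1 (-1.07 ± 0.28, adjusted p = 0.0462), Atp5d (-0.81 ± 0.17, adjusted p = 0.0158) and Atp5o (-0.72) of complex V. The libraries did not overlap for 21 members, with CD8αα from CD4 lower (16.7% of all genes), and for 1 with it higher (12.2%).

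Atp5d, the δ subunit of the head, was at 115, 140.5 and 185 CPM in CD8αα from CD4 and 257, 255 and 261 CPM in CD8αα from CD8αβ, with no overlap. These calls depended on single libraries: 0 were left without CD8αα from CD4 replicate 1 or 2, and 0 without CD8αα from CD8αβ replicate 2 or 3. With the transcript length offset Atp5d and Atp5g1 were lower and 0 members higher, where 1.84% and 1.74% of all genes were. Without CD8αβ IEL replicate 1 the same 7 genes were lower and 0 higher, where 2.87% and 2.00% of all genes were.

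Whether the CD8αα change differed by origin was tested as the difference of both changes, CD8αα from CD4 against CD4 IEL minus CD8αα from CD8αβ against CD8αβ IEL. Of the 83 members 3 differed, all higher in the CD4 recipients (edgeR adjusted p under 0.05), where 1.20% of all genes were higher and 1.35% lower. They were Ndufb5 of complex I (difference 1.09 ± 0.27, adjusted p = 0.0471), Atp5o of complex V (0.89 ± 0.22, adjusted p = 0.0478) and Ndufv2 (0.86 ± 0.21, adjusted p = 0.0493). At an unadjusted p under 0.05 the count was 49 higher and 0 lower, and DESeq2 (adjusted) gave 14 and 0. The shares of all genes at these other thresholds are not given here, so these counts have no background to be read against. Ndufb5 was at 30.6, 23.6 and 25.5 CPM in CD4 IEL and 46.4, 46.7 and 53.8 in CD8αα from CD4, and at 84.7, 100.3 and 68.2 in CD8αβ IEL and 59.7, 86.4 and 72.5 in CD8αα from CD8αβ. The first pair of groups did not overlap and the second did. All 3 adjusted p-values lay close to the threshold, and with the transcript length offset 0 members differed (1.05% of all genes higher, 1.33% lower). Without CD8αβ IEL replicate 1 the count was 4, all higher (1.51% of all genes, with 1.54% lower). Tested for any difference between groups at once, 62 members were called (52.2% of all genes), 65 without that library (52.2%) and 37 with the transcript length offset (48.2%). These comparisons share libraries, so their values are not independent of one another.

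Complex IV has alternative isoforms that replace common subunits in muscle, testis or low oxygen, and they held few reads in all groups. Of the reads of each pair, the alternative took 2.28% for Cox6a2 with Cox6a1, 0.411% for Cox7a1 with Cox7a2, 0.207% for Cox6b2 with Cox6b1 and 0.00315% for Cox4i2 with Cox4i1, summed over the 12 libraries. Cox7b2, Cox8b, Cox8c and Ndufa4l2 had 0 reads, where 3 counts would be 0.271 to 0.534 CPM in a library. Cox6a2, a muscle form, was the only alternative that could be tested, with 271 reads, and it was at 0.436, 0.913 and 0.599 CPM in the CD4 IEL libraries, 0.416, 13.0 and 0.988 in those of CD8αβ IEL, 2.05, 2.64 and 2.50 in CD8αα from CD4 and 1.31, 3.19 and 3.33 in CD8αα from CD8αβ. Its highest value was in CD8αβ IEL replicate 2, and it passed no test between groups.

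Other mitochondrial and metabolic genes were read beside the members. Of 76 mitochondrial ribosomal proteins, which translate the mitochondrially encoded subunits, 52 were lower in CD4 IEL than in CD8αβ IEL and 0 higher (median -1.0), and 18 were higher and 1 lower in CD8αα from CD4 than in CD4 IEL (median 0.34). Cytosolic ribosomal proteins gave 75 lower and 1 higher of 92 in the first of these (median -1.54) and 1 higher and 3 lower in the second (median 0.11); this list was taken by symbol and also holds a few ribosomal S6 kinases. Electron carriers and inner membrane exchangers gave 9 lower and 1 higher of 22 in CD4 IEL against CD8αβ IEL. Over all genes 16.0% were lower and 12.9% higher in that comparison. In CD8αα from CD4 against CD4 IEL 15.0% of all genes were higher and 13.5% lower. Leaving out CD8αβ IEL replicate 1, the counts in CD4 IEL against CD8αβ IEL were 53 lower and 1 higher for mitochondrial ribosomal proteins (median -1.06), 66 and 1 for cytosolic ones (median -1.26), and 9 and 0 for carriers (median -0.56). Cycs, cytochrome c itself, was at 195 CPM in CD8αβ IEL replicate 1 and at 4.70 to 16.1 CPM in the other 11 libraries, and its called change went from -3.65 to -1.28 ± 0.37 without that library (edgeR adjusted p = 0.0222). Timm23, a pore of protein import, was at 81.4 CPM there and 6.66 to 17.5 CPM elsewhere. Other genes of these lists stood apart in the same library: Rps6 was at 1169 CPM there and at most 26.0 CPM elsewhere, Rps13 at 311 and at most 21.4, Mrpl23 at 25.8 and at most 3.38, and the glycolytic Gapdh at 219 and at most 78.4 and Pgk1 at 184 and at most 45.4.

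In the tricarboxylic acid cycle list 5 of 18 genes were lower and 1 higher in CD4 IEL than in CD8αβ IEL. Over all genes 16.0% were lower and 12.9% higher. Mdh2, malate dehydrogenase, was lower, at -0.89 ± 0.14. Idh2, the mitochondrial NADP-dependent isocitrate dehydrogenase, rose in both comparisons of libraries labelled CD8αα with their companions, by 1.92 ± 0.19 in CD4 recipients and 2.81 ± 0.19 in CD8αβ recipients (edgeR adjusted p = 4.57e-06 and 1.70e-07). In the first of these 3 other genes of that list fell (13.5% of all genes), in the second 6 (15.1%). Of 17 glycolytic genes 6 were lower and 1 higher in CD8αα from CD4 than in CD4 IEL (13.5% of all genes lower), and 9 lower and 0 higher in CD8αα from CD8αβ than in CD8αβ IEL (15.1% of all genes lower), or 9 and 7 lower without CD8αβ IEL replicate 1; hexokinase 2, Hk2, fell by 3.54 ± 0.32 in the former. Of 17 regulators of mitochondrial biogenesis 0 were higher and 6 lower in CD8αα from CD4 than in CD4 IEL, where members were higher. Over all genes 15.0% were higher and 13.5% lower. The mitochondrial DNA polymerase Polg (-2.13 ± 0.38) and the coactivator Pprc1 (-1.82 ± 0.32) fell. In CD4 IEL against CD8αβ IEL 2 of the 17 regulators were lower and 0 higher (median 0.10), a smaller share than the 16.0% of all genes lower. They were Myc (-0.72 ± 0.17) and Tfam (-0.57 ± 0.17), which packages and transcribes mitochondrial DNA. Without CD8αβ IEL replicate 1 this list gave 2 lower and 2 higher (median 0.13), where 16.6% of all genes were lower and 13.3% higher. The chaperones Hspe1 and Hspd1 were lower in CD8αα from CD4 than in CD8αα from CD8αβ, by -1.42 ± 0.32 and -1.22 ± 0.17. The cell cycle list fell in both comparisons with the libraries labelled CD8αα, by 28 and 29 of 30 genes (13.5% and 15.1% of all genes).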

How the data were processed

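RNA was measured by bulk RNA-seq in 12 libraries. Reads were aligned with HISAT2 2.1.0 to mm10, per the submitters' processing notes; for the counter, annotation, strand and reads that match several places, the sources used here give nothing. The deposited table holds raw counts per gene and library. Of 25965 rows, 66 that shared a symbol were left out (0.0202% of reads), and no member was among them. Genes kept by edgeR's filterByExpr (minimum count 10, minimum total 15) were 12622. One edgeR 4.0.16 quasi-likelihood fit (R 4.3.3, TMM) over all 4 groups gave 4 contrasts, the difference of both CD8αα changes and a test over all groups, with Benjamini-Hochberg adjustment over all genes and a threshold of 0.05. Errors of fold changes are standard errors and intervals are approximate 95% intervals from them. The script was tested on simulated data. CPM used TMM library sizes. Transcript and exon lengths came from GENCODE M21 (GRCm38), promoters from RefSeq, and copies from blastn 2.17.0+ of coding sequences against that release's transcripts. Within groups, counts of replicates differed by more than sampling noise (chi-square per gene 11.4 to 60.2 over genes with at least 20 reads in the pair), and none were identical. Named genes were those with the largest called changes per complex (2 each), those opposite to their complex, those that differed by origin, the isoform pairs, the core subunits and the 2 highest per length, plus up to 2 per other list; genes outside this rule were named after their values were seen, and 1 gene is not reported here. The members, lists and alternatives were chosen with earlier results of these data known. Alternatives were other scalings, filters, DESeq2 1.42.0, left-out libraries, a replicate block and length offsets.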

Additional observations from a re-analysis of the deposited data

Results flagged for a closer look

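The CD8αα change differed between the CD4 and CD8αβ recipients, by a test of the difference itself, for 3 members. Ndufb5 gave a log2 difference of 1.09 (edgeR adjusted p = 0.0471), Atp5o one of 0.89 (adjusted p = 0.0478) and Ndufv2 one of 0.86 (adjusted p = 0.0493). For Ndufb5 and Atp5o the change in the CD4 recipients was a called rise (0.88 and 0.52); for Ndufv2 the change in the CD8αβ recipients was a called fall (-0.60). All 3 calls were lost with the transcript length offset, when only the CD8αα libraries with Y-linked transcripts were kept, and on leaving out any 1 of 8 libraries.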

How the results depend on the processing

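Under these alternatives no named called value and no median over the members changed sign, and of 1446 re-tests of 63 named called values 1198 stayed past the threshold and 248 did not. Medians of single complexes, computed for 5 of the alternatives, did change sign: complex II in CD8αα from CD4 against CD4 IEL went from 0.09 to -0.13 and -0.11 with the exon and transcript length offsets, complex II in CD8αα from CD8αβ against CD8αβ IEL from 0.01 to -0.018 without CD8αβ IEL replicate 1 and -0.039 with library totals, and complex IV between the CD8αα groups from -0.29 to 0.063 with the transcript length offset; the cause was not tested. With library totals in place of TMM, 2 members were lower in CD8αα from CD4 than in CD4 IEL, 1 was higher in CD4 IEL than in CD8αβ IEL and 1 differed by origin. DESeq2 gave 2 lower in the first of these, 11 lower between the CD8αα groups and 14 that differed by origin. A fit of only the 2 groups compared gave 36 higher in CD8αα from CD4 than in CD4 IEL. An offset for exon length gave 8 higher and 3 lower there, 3 lower between the CD8αα groups, a median of -0.77 for CD4 IEL against CD8αβ IEL and 1 difference by origin. By complex, CD4 IEL against CD8αβ IEL had its lowest median in complex IV with all libraries, but in complex V with the exon length offset (-0.99 against -0.91) and without CD8αβ IEL replicate 2 (-1.20 against -1.12). The following were chosen after seeing the data. The transcript length offset gave 8 higher and 3 lower in CD8αα from CD4 than in CD4 IEL, 2 lower between the CD8αα groups, 39 lower in CD4 IEL than in CD8αβ IEL at a median of -0.61, 0 differences by origin and 37 members that differed among the 4 groups; without CD8αβ IEL replicate 1 as well, these were 9, 3, 2, 33, -0.62, 0 and 37. With only the CD8αα libraries that had Y-linked transcripts, 10 were higher in CD8αα from CD4, 0 higher and 1 lower in CD8αα from CD8αβ at a median of -0.017, 0 lower between the CD8αα groups and 0 differed by origin. Without CD8αβ IEL replicate 2 and CD8αα from CD8αβ replicate 2, the libraries with the highest short-gene level, 41 were higher in CD8αα from CD4, 1 was lower between the CD8αα groups, and the median of CD4 IEL against CD8αβ IEL was -0.97.

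Leaving out each library in turn gave 52 to 70 members lower in CD4 IEL than in CD8αβ IEL (0 to 0 higher) with medians from -1.52 to -0.97, the latter without CD8αβ IEL replicate 2. The medians ran from 0.49 to 0.70 for CD8αα from CD4 against CD4 IEL, from -0.51 to -0.070 for CD8αα from CD8αβ against CD8αβ IEL, and from -0.56 to -0.11 between the CD8αα groups. It gave 7 to 27 higher and 0 to 2 lower in CD8αα from CD4 than in CD4 IEL, 6 to 20 lower and 0 to 1 higher in CD8αα from CD8αβ than in CD8αβ IEL, 0 to 9 lower between the CD8αα groups, 0 to 4 that differed by origin and 54 to 65 that differed among the 4 groups. The 3 differences by origin fell to 0 without any 1 of the CD4 IEL replicates, CD8αβ IEL replicate 2, CD8αα from CD4 replicate 2 or 3, or CD8αα from CD8αβ replicate 1 or 3. With the replicate number as a block the counts were 24 higher in CD8αα from CD4, 12 lower and 1 higher in CD8αα from CD8αβ, 8 lower between the CD8αα groups, 65 lower in CD4 IEL than in CD8αβ IEL and 3 by origin. The numbers do not pair the samples by the labels, and deviations of same-numbered libraries correlated at 0.0978 to 0.326 between CD8αβ IEL and CD8αα from CD8αβ and at -0.0689 to 0.0874 for the other pairs of groups. Depth limits the low genes: 3 counts are 0.271 to 0.534 CPM, and 7 members could not be tested.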
